A study of Mus musculus with 4 samples.

Results

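The genes described here are transcription factor genes of the bone and cartilage lineages, read in mouse 3T3 cells that were treated with recombinant LTα1β2 or left as controls. The list named 9 genes, Sp7, Runx2, Runx1, Dlx5, Msx1, Msx2, Sox9, Twist1 and Twist2, and was matched by mouse symbol to the Ensembl identifiers of the deposited table. Of these 9, 8 were among its 12208 genes and all 8 entered the test. Twist2 was not analysed here.

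There were 4 groups with 1 library in each: cells given LTα1β2 for 24 h, cells given LTα1β2 for 48 h, control cells at 24 h and control cells at 48 h. LTα1β2 is the membrane form of lymphotoxin, a TNF family ligand whose receptor signals through NF-κB, and the series title writes it as rhLTα1β2. The labels call the cells a pre-osteoblast line. Fibroblast lines share the name 3T3, and the labels do not say which 3T3 line these cells are. Neither a dose nor the treatment given to the controls is stated in the labels, and it is not stated whether the 4 libraries came from separate cultures.

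Runx2 is the factor without which mesenchymal cells do not enter the osteoblast lineage, and Sp7 (osterix) acts after it in the same path. Dlx5, Msx1 and Msx2 are homeobox factors that act downstream of BMP signals in forming bone, and Sox9 directs cells towards cartilage. Twist1 is a basic helix-loop-helix factor that holds back Runx2 protein in skeletal precursors. Runx1 is the paralogue of Runx2 best known from blood formation and is also expressed in skeletal progenitors.

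Of the other genes by which osteoblasts are recognised, Col1a1 (type I collagen) stood at 10034 CPM in LTα1β2-treated and 15684 CPM in control cells at 24 h, and Spp1 (osteopontin) between 1234 and 2210 CPM in the 4 libraries. Of the osteocalcin genes, Bglap was at no more than 1.33 CPM and Bglap2 at no more than 4.25 CPM in any library. Alpl and Ibsp, which mark maturing osteoblasts, were not analysed here. The table held no zeros and its lowest value lay between 9 and 12 reads in the 4 libraries, so genes near silence in any library lie outside it. Depth, as whole reads recovered from the CPM values, ran from 11355974 to 15995777 per library. The LTα1β2 library at 48 h stood apart from the others. Weighted by reads, the median transcript in it was 3127 bases long, against 3588 in the LTα1β2 library at 24 h and 3659 and 3595 in the controls at 24 h and 48 h. The results below are therefore also given, where it matters, with the trend on transcript length removed and without that library.

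The RUNX proteins bind a short motif, TGTGGT, that the promoter of Runx2 itself carries. The stretches around these motifs are shown for Runx2 and for its paralogue Runx1, because Runx2 was lower in treated cells and Runx1 did not pass the test. They come from RefSeq (GRCm38.p6), in windows of 250 bases before to 50 after each gene's start, and capitals mark the motif as it reads on the gene's strand (ACCACA). Positions count from the RefSeq start as 1, so both downstream stretches lie within the first 50 bases from that start. The GENCODE M21 spans of Runx2 and Runx1, given below, begin upstream of the RefSeq starts used for these stretches. That of Runx2 takes in its stretch at -110 to -51.
Runx2, -110 to -51, chr17:44814678-44814737, minus strand: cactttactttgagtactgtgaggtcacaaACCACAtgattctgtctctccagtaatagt
Runx2, 16 to 45, chr17:44814583-44814612, minus strand: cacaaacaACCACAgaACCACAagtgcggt
Runx1 at its distal start, 21 to 50, chr16:92826025-92826054, minus strand: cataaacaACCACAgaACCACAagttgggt

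Both paralogues held the motif as a tandem pair with the same 2 bases between the copies, at 24 and 32 in Runx2 and at 29 and 37 in Runx1, and Runx2 held another copy at -80. In Runx2 the copies at -80 and 32 overlapped an E-box (CANNTG). Windows were found for 6 of the 9 genes: Runx1, Runx2, Twist1, Twist2, Msx1 and Msx2. They made 7 windows in all, since Runx1 has 2 starts there. Sp7, Dlx5 and Sox9 had no window and were not searched for any motif. The RUNX motif on either strand was in 2 of these 7 and in 16.8% of all 32851 windows. The NF-κB consensus was in 0 of the 7 and in 8.46% of all windows. A match describes the letters and not a bound site.

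The comparison of LTα1β2 with control asked what the ligand does to this set of factors. Sp7, Runx2 and Dlx5 fell, and the other 5 genes did not pass the test. Sp7 changed most. It stood at 12.8 CPM in LTα1β2-treated and 35.1 CPM in control cells at 24 h, and at 7.93 CPM in treated and 30.8 CPM in control cells at 48 h. Both treated libraries lay far below both controls. The ratio of treated to control was 0.365 at 24 h (95% counting interval 0.308 to 0.430) and 0.257 at 48 h (0.202 to 0.324). The intervals cover counting error only and no difference between cultures. Among the 12160 genes tested, Sp7 had the 2nd lowest log2 fold at 24 h and the 5th lowest at 48 h. It was the only 1 of the 8 at least 2-fold lower at either time, against 0.181% of all tested genes at 24 h and 0.715% at 48 h. None of the 8 was 2-fold higher, as 0.345% of tested genes were at 24 h and 1.86% at 48 h. RNA was taken from whole cultures, so fewer cells expressing a gene and less RNA per cell cannot be told apart.

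**Figure D1:**
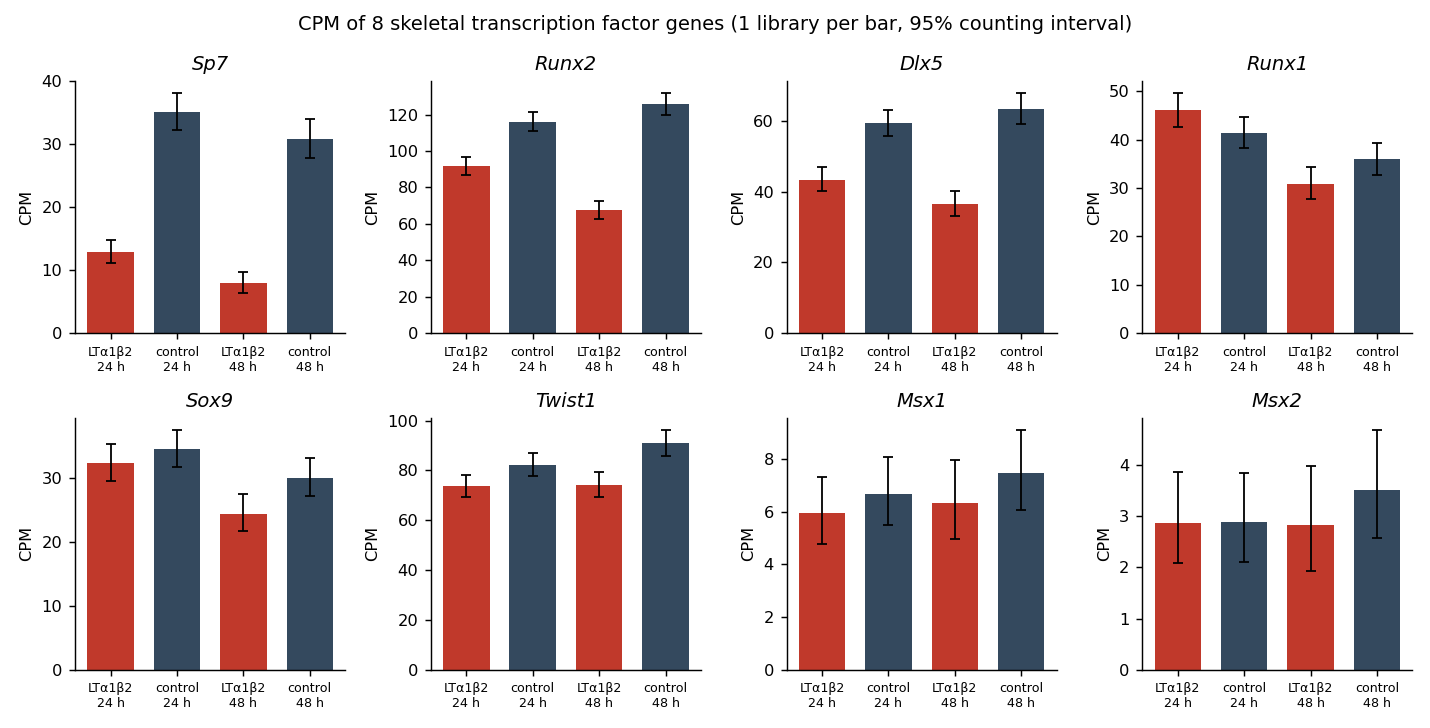
CPM of each of the 8 genes (vertical axis, from 0) in the 4 libraries, with LTα1β2 in red and control in dark blue at 24 h and then 48 h. Each bar is 1 library and its whisker is the exact 95% Poisson interval of the reads. Sp7 stands at 12.8 and 7.93 CPM in the treated libraries, against 35.1 and 30.8 CPM in the controls.

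Runx2 was lower by less. It stood at 91.5 CPM in LTα1β2-treated and 116 CPM in control cells at 24 h, a ratio of 0.788 (0.735 to 0.846). At 48 h it stood at 67.5 CPM in treated and 126 CPM in control cells, a ratio of 0.538 (0.493 to 0.586). The treated libraries were both below both controls, and the gap was wider at 48 h. Dlx5, which encodes a homeobox factor acting upstream of Runx2 and Sp7, stood at 43.4 CPM in treated and 59.3 CPM in control cells at 24 h (0.732, 0.661 to 0.810). At 48 h it stood at 36.5 CPM in treated and 63.4 CPM in control cells (0.577, 0.511 to 0.650). Here too the groups did not overlap. The share of all tested genes with such a split was not counted. By the weaker condition of lower at both times it was 33.2%.

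The test was an additive limma fit of treatment and time over all 4 libraries, which takes the 24 h and 48 h comparisons as repeats of the treatment. It gave Sp7 a log2 fold of -1.61 ± 0.18 (SE, adjusted p = 1.26e-15, limma). Runx2 had -0.61 ± 0.17 (adjusted p = 0.0102, limma) and Dlx5 -0.61 ± 0.17 (adjusted p = 0.0123, limma). So 3 of 8 fell and 0 rose, with 0 higher also at an unadjusted p under 0.05 and 0 higher with voom, where 2.27% of all tested genes fell, 2.92% rose and 5.19% did either. The fit estimated infinite prior degrees of freedom, so each gene was judged against the spread typical of its level. With 9.82 prior degrees of freedom, which lets a gene's own spread count, Sp7 passed (adjusted p = 0.0037, limma), and Runx2 (adjusted p = 0.213) and Dlx5 (adjusted p = 0.192) did not. There 0.206% of all tested genes fell. Median-of-ratios rescaling, whose fit estimated those 9.82 prior degrees of freedom, likewise called Sp7 and not Runx2 (log2 fold -0.58, adjusted p = 0.0786, limma) or Dlx5 (log2 fold -0.57, adjusted p = 0.0729). The same held for a fit with no time term (adjusted p = 0.317 and 0.267) and fits without control at 24 h or at 48 h (adjusted p = 0.9999 for both genes in each).

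**Figure D2:**
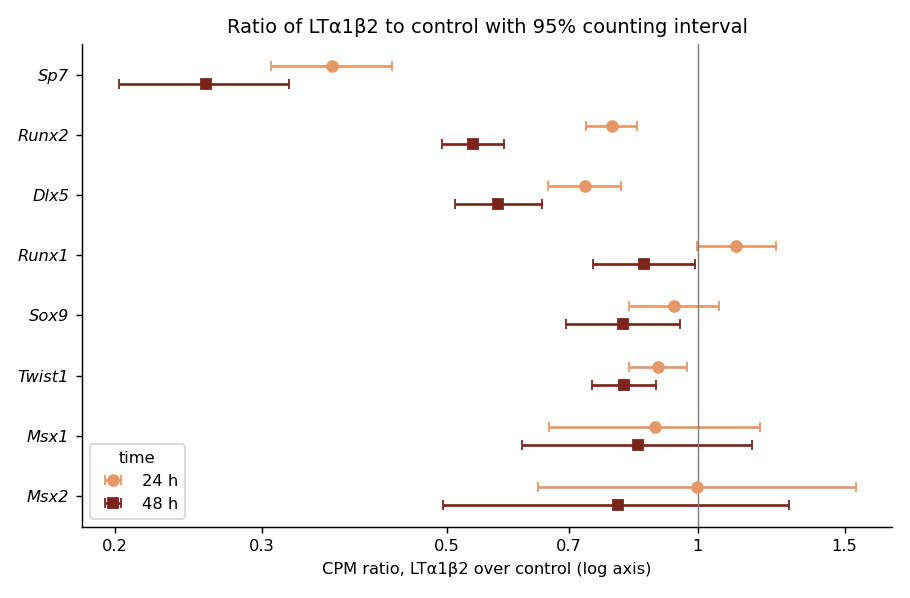
Ratio of CPM in LTα1β2-treated to control cells (horizontal log axis) for each gene at 24 h (circles) and 48 h (squares). Whiskers are 95% counting intervals, which lie below 1 at both times for Sp7, Runx2, Dlx5 and Twist1. They cover counting error only, and the share of all tested genes with such intervals was not counted for these comparisons.

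Transcript length touched these values unequally at 48 h, when long transcripts were lower in the treated library. The longest annotated transcript is 6463 bases for Runx2, 3097 for Sp7 and 1423 for Dlx5. With the length trend removed the log2 fold at 48 h was -0.62 for Runx2, where it had been -0.89. For Dlx5 it was -0.96, where it had been -0.78, and for Sp7 -1.78, where it had been -1.84. All 3 genes passed in that fit, Sp7 with adjusted p = 0.00179, Runx2 with 0.0405 and Dlx5 with 0.0322 (limma). They also fell without the LTα1β2 library at 48 h, in a fit with no time term, with log2 folds of -1.30 for Sp7, -0.40 for Runx2 and -0.49 for Dlx5.

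Coordinates here are those of GENCODE M21 on GRCm38, and the authors' own build may differ. Runx2 (chromosome 17, 44495987 to 44814797, minus strand) shares its span with Supt3 and 3 antisense genes on the other strand, and with the ribosomal RNA gene n-R5s27 on its own strand. Whether reads were counted by strand is not given in the sources used here. Of these overlapping genes only Supt3, a subunit gene of transcriptional coactivator complexes, was in the table. It stood at 13.8 CPM in treated and 10.6 CPM in control cells at 24 h, and at 13.7 CPM in treated and 10.5 CPM in control cells at 48 h, the opposite direction to Runx2. Sp7 (chromosome 15, 102356606 to 102367182, minus strand) and Dlx5 (chromosome 6, 6877805 to 6882085, minus strand) overlap no other annotated gene. Runx1 lies on chromosome 16 (92601466 to 92826149, minus strand), where an antisense gene outside the table overlaps it. Sox9 lies on chromosome 11 (112782224 to 112787760, plus strand), Twist1 on chromosome 12 (33957671 to 33959829, plus strand), Msx1 on chromosome 5 (37820485 to 37824583, minus strand) and Msx2 on chromosome 13 (53466884 to 53473074, minus strand).

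Runx1 did not pass. It stood at 46.0 CPM in LTα1β2-treated and 41.4 CPM in control cells at 24 h (1.11, 0.999 to 1.24). At 48 h it stood at 30.9 CPM in treated and 35.9 CPM in control cells (0.861, 0.748 to 0.991). It was the only 1 of the 8 genes above control at 24 h, and its treated and control values overlapped. The additive log2 fold was -0.03 ± 0.17 (adjusted p = 0.965, limma). The sign of this fold is not settled: it was 0.08 with the length trend removed, 0.01 with median-of-ratios rescaling and 0.25 without the LTα1β2 library at 48 h. Without the LTα1β2 library at 24 h, in a fit with 1 treated library, it was -0.31. Within each library the level of Runx2 per kilobase was 1.80 times that of Runx1 in treated cells (1.64 to 1.98) and 2.54 times in control cells (2.33 to 2.78) at 24 h. At 48 h it was 1.98 times in treated cells (1.74 to 2.25) and 3.17 times in control cells (2.86 to 3.52). Such a ratio does not depend on how the libraries are scaled, and it was lower in treated cells at both times beyond counting error.

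Sox9, the cartilage factor, stood at 32.4 CPM in LTα1β2-treated and 34.6 CPM in control cells at 24 h (0.936, 0.827 to 1.06). At 48 h it stood at 24.5 CPM in treated and 30.1 CPM in control cells (0.814, 0.695 to 0.951). The groups overlapped, since treated cells at 24 h were above control at 48 h, and the gene did not pass (log2 fold -0.19 ± 0.18, adjusted p = 0.681, limma). Its fold was 0.006 without the LTα1β2 library at 48 h, and -0.39 without that at 24 h, each in a fit with 1 treated library. Twist1 stood at 73.7 CPM in treated and 82.3 CPM in control cells at 24 h (0.896, 0.826 to 0.971), and at 74.2 CPM in treated and 91.0 CPM in control cells at 48 h (0.816, 0.746 to 0.892). Both treated values lay below both control values, at each time by more than counting error, but the gene did not pass (log2 fold -0.22 ± 0.17, adjusted p = 0.579, limma). The share of all tested genes with such a split or such intervals was not counted. Of all tested genes 18.6% had a lower log2 fold than Twist1 at 24 h and 26.8% at 48 h.

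The Msx genes were low throughout and were measured with little precision. Msx1 stood at 5.94 CPM in treated and 6.69 CPM in control cells at 24 h, and at 6.34 CPM in treated and 7.48 CPM in control cells at 48 h. Its ratios of 0.888 (0.663 to 1.19) and 0.847 (0.616 to 1.16) both have intervals that include 1. Msx2 stood at 2.87 CPM in treated and 2.88 CPM in control cells at 24 h, and at 2.82 CPM in treated and 3.51 CPM in control cells at 48 h, which is 32 to 46 reads in each library. At that depth the counting interval of its ratio at 48 h ran from 0.494 to 1.29. That range takes in both 1 and the Runx2 ratio of 0.538 at the same time.

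In all, 7 of the 8 genes were lower in treated cells at both times, with Runx1 the exception, where 33.2% of all tested genes were lower at both. Among the 7, the intervals of Msx1 and Msx2 included 1 at both times and that of Sox9 at 24 h. The Msx2 ratio at 24 h was 0.998. The same 7 of 8 held under the other pseudocounts, the rescaling and the removal of the length trend. The median log2 fold of the 8 was -0.15 at 24 h and -0.29 at 48 h, beside 0.02 and -0.09 over all tested genes.

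**Figure D3:**
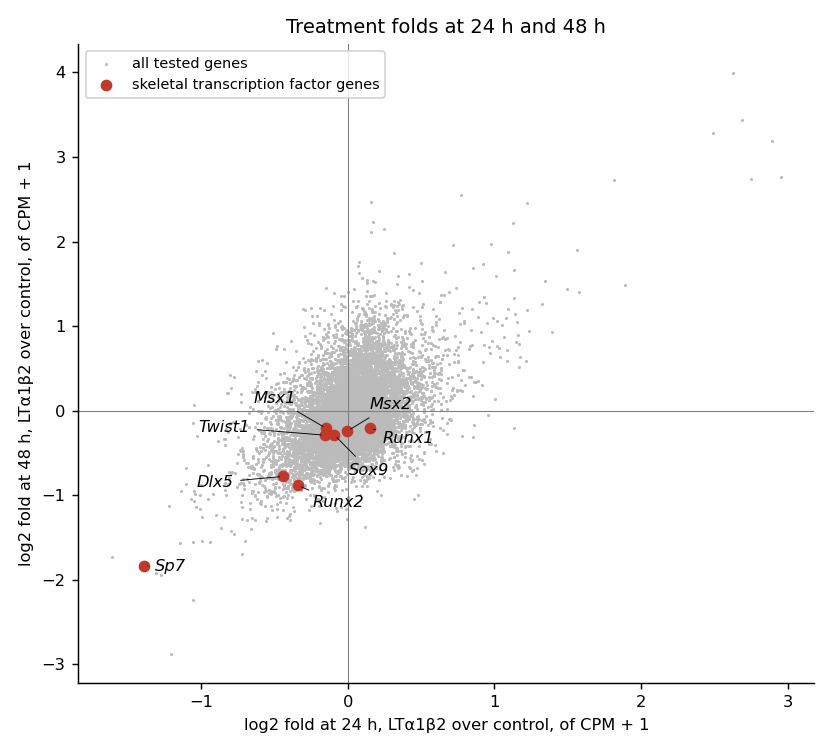
Log2 fold of LTα1β2 over control, on CPM + 1, at 24 h (horizontal axis) and 48 h (vertical axis) for all 12160 tested genes in grey and the 8 skeletal factors in red. Sp7 lies at the lower left edge of all genes at -1.39 and -1.84. Runx2 lies at -0.34 and -0.89 and Dlx5 at -0.44 and -0.78.

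The time comparison asked how the genes stood at 48 h relative to 24 h. In treated cells 5 of the 8 had a counting interval below 1, as did 40.1% of all tested genes. In control cells 3 did, with 15.3% of all tested genes, and Runx2 and Twist1 had one above 1, with 10.8%. In LTα1β2-treated cells at 48 h relative to 24 h the ratio was 0.619 for Sp7 (0.476 to 0.799), 0.738 for Runx2 (0.675 to 0.807), 0.671 for Runx1 (0.589 to 0.764), 0.843 for Dlx5 (0.743 to 0.954) and 0.755 for Sox9 (0.649 to 0.877). The median gene of that comparison lay at a log2 fold of -0.13, and at -0.001 after median-of-ratios rescaling. In control cells the ratio of 48 h to 24 h was 0.878 for Sp7 (0.771 to 0.999), 1.08 for Runx2 (1.01 to 1.16), 0.867 for Runx1 (0.769 to 0.977), 1.07 for Dlx5 (0.973 to 1.18) and 0.869 for Sox9 (0.761 to 0.990). None of the 8 changed 2-fold with time, in treated cells or in control cells, in either direction. Of all tested genes 0.428% were at least 2-fold lower and 1.04% higher in treated cells, and 0.0247% lower and 0.00822% higher in control cells. The treated-to-control ratio at 48 h divided by that at 24 h was 0.705 for Sp7 (0.532 to 0.933), 0.682 for Runx2 (0.611 to 0.762), 0.774 for Runx1 (0.650 to 0.922) and 0.788 for Dlx5 (0.675 to 0.920). The intervals of these 4 lay below 1, as did those of 30.2% of all tested genes, and the other 4 included 1. With the length trend removed, the log2 fold at 48 h minus that at 24 h was -0.27 for Runx2, where it had been -0.55, and -0.11 for Runx1, where it had been -0.36. It was -0.38 for Sp7, where it had been -0.45, and -0.50 for Dlx5, where it had been -0.34. With 1 library per group the difference between the times has no test.

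Per kilobase of the longest transcript, the order of the 8 genes was the same in both controls: Twist1, Dlx5, Runx2, Sp7, Sox9, Runx1, Msx1, Msx2. Twist1 was highest in every library, at 45.3 CPM per kilobase in treated and 50.6 in control cells at 24 h. Sp7 was 6th in treated cells at 24 h and 7th in treated cells at 48 h (6th with the union of exons as the length), against 4th in both controls. Its level was 4.14 CPM per kilobase in treated and 11.3 in control cells at 24 h, and 2.56 in treated and 9.96 in control cells at 48 h. In both treated libraries its interval overlapped that of Msx1, which in control cells lay below Sp7, Sox9 and Runx1. By this length the intervals of Sox9 and Runx1 overlapped in treated cells at both times and in control cells at 48 h. Their distance depends on the length used. With the union of exons Runx1 stood at 3.83 and Sox9 at 7.84 CPM per kilobase in treated cells at 24 h, and Runx1 at 3.44 and Sox9 at 8.38 in control cells.

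**Figure D4:**
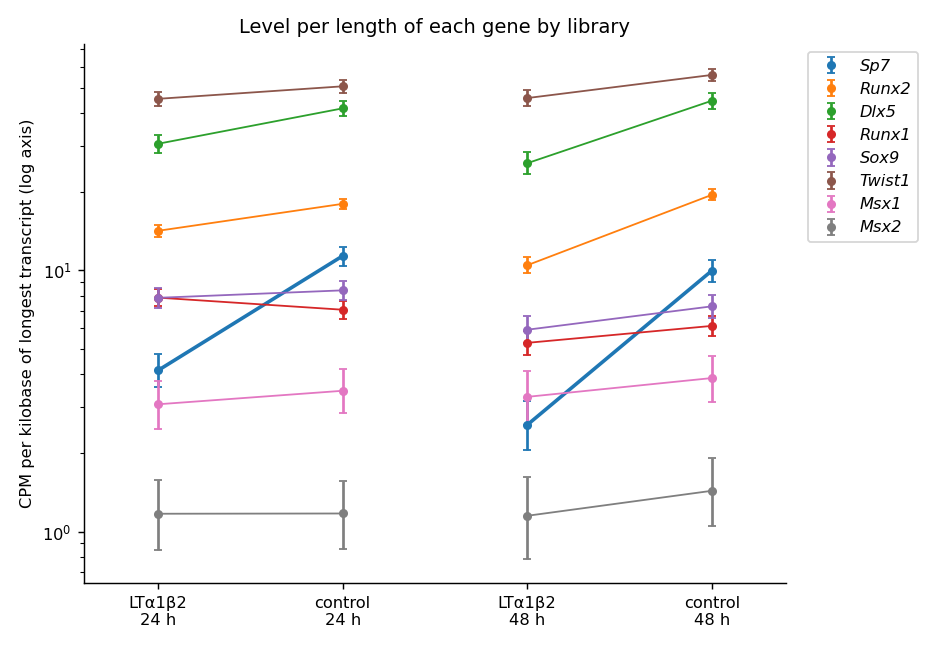
Level of each gene in CPM per kilobase of its longest transcript (vertical log axis) in LTα1β2 and control libraries at 24 h (left pair) and 48 h (right pair). Lines join the 2 libraries of 1 time and whiskers are 95% counting intervals. The Sp7 line crosses those of Sox9 and Runx1 at both times.

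The level of Sp7 relative to Runx2 within 1 library, per kilobase, was 0.292 in treated cells (0.25 to 0.340) and 0.632 in control cells (0.574 to 0.695) at 24 h. At 48 h it was 0.245 in treated cells (0.195 to 0.305) and 0.513 in control cells (0.459 to 0.572). Relative to Dlx5 it was 0.136 in treated cells (0.115 to 0.160) and 0.272 in control cells (0.245 to 0.303) at 24 h, and 0.0996 in treated (0.0784 to 0.125) and 0.224 in control cells (0.198 to 0.252) at 48 h. Sp7 was therefore lower in treated cells relative to both factors that act before it, at both times and whatever the scaling of the libraries.

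Likeness over the 4 libraries was ranked by Euclidean distance between centred log2 values. Genes with Gm, Rik, clone or blank symbols were set aside, so nearer genes among them are not shown. Of the rest, the genes most like Sp7 were Igfbp5, Shank1, Mest and Cyp26b1, at distances of 0.177 to 0.351. Igfbp5, which encodes an IGF-binding protein, had ratios of 0.373 at 24 h and 0.227 at 48 h. For Runx2 they were Srrm4, Susd4, Thbd and Ptpn13, at distances of 0.0354 to 0.0479. Thbd, the thrombomodulin gene, had ratios of 0.778 at 24 h and 0.551 at 48 h. The distances rest on 4 libraries.

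Several signals that act before these factors were lower. Of 20 tested genes of BMP, Wnt, FGF, hedgehog, IGF and vitamin D signalling, 8 fell and 0 rose (1 higher at an unadjusted p under 0.05), beside 2.27% and 2.92% of all tested genes. Without the LTα1β2 library at 48 h, in a fit with 1 treated library, the log2 folds of Bmp4, Fgfr2, Fgfr3 and Wnt4 were -0.955, -1.020, -0.725 and -0.989. That of Smad4, named after its value was seen, was 0.32 there. The median log2 fold of the 20 was -0.24 at the earlier time and -0.68 at the later. Bmp4, a ligand that induces Dlx5 and Msx genes, stood at 58.3 CPM in treated and 121 CPM in control cells at 24 h, and at 48.3 CPM in treated and 108 CPM in control cells at 48 h. The FGF receptor genes Fgfr2 and Fgfr3 had ratios of 0.532 and 0.590 at 24 h and of 0.421 and 0.388 at 48 h (adjusted p = 8e-08 and 9.93e-06, limma), and Wnt4 had an additive log2 fold of -0.94 (adjusted p = 0.00066). Ptch1, Wnt10b, Igf1 and Lrp5, named after their values were seen, also fell, with folds from -0.85 to -0.55. With 9.82 prior degrees of freedom 2 of the 20 fell, Bmp4 and Fgfr2, beside 0.206% of all tested genes.

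Among 15 other osteoblast transcription factors and cofactors 4 fell and 0 rose (0 higher at an unadjusted p under 0.05). Of all tested genes 2.27% fell and 2.92% rose. The 4 were Hes1, a Notch effector (log2 fold -0.79), Mef2c (-0.71), Snai1 (-0.66) and Zfp521, which encodes a zinc-finger partner of Runx2 (-0.63). With median-of-ratios rescaling 1 fell, Snai1, where 84 of 12160 tested genes fell. Without the LTα1β2 library at 48 h, in a fit with 1 treated library, the log2 folds of Hes1 and Snai1 were -0.76 and -0.46. That of Ets1, named after its value was seen, was 0.57 there. With 9.82 prior degrees of freedom 0 of the 15 fell, with adjusted p from 0.133 to 0.22 for these 4 (limma). Cbfb, the obligate partner of the Runx proteins, named after its value was seen, stood at 172 CPM in treated and 158 CPM in control cells at 24 h and at 145 CPM in treated and 185 CPM in control cells at 48 h, and did not pass (adjusted p = 0.821, limma). Of 19 Runx co-repressors, activators and ubiquitin ligases 1 fell, Tle2, which encodes a Groucho-family co-repressor, with ratios to control of 0.475 (0.424 to 0.532) at 24 h and 0.506 (0.433 to 0.589) at 48 h. Among the 7 partners of Twist, the E proteins and Id proteins, 0 passed (limma; 0 with voom; 1 at an unadjusted p under 0.05), with Tcf4 the lowest at -0.36 ± 0.17 (SE). Of the 7, 3 were lower than control at both times and 1 was higher at both, where 33.2% of all tested genes were lower at both. Without the LTα1β2 library at 48 h, in a fit with 1 treated library, these 3, Id2, Id3 and Tcf4, had log2 folds of -0.35, -0.27 and -0.27. Of 12 mesenchymal homeobox genes 0 passed (limma; 0 with voom; 4 at an unadjusted p under 0.05). With the length trend removed 2 of them fell, where 178 of 12160 tested genes fell.

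Genes that the skeletal factors are known to activate were lower in part. Of all tested genes 2.27% fell and 2.92% rose. Of 17 tested targets of Runx2 and Sp7, 3 fell and 0 rose (0 higher at an unadjusted p under 0.05). The median gene of the 17 had a log2 fold of -0.23 at 24 h and of -0.47 at 48 h. Omd, osteomodulin, had a log2 fold of -1.06 (adjusted p = 2.01e-07, limma), Dmp1, which encodes a phosphoprotein of bone matrix, -1.04 (adjusted p = 4.03e-05) and Col1a1 -0.80 (adjusted p = 0.0338). With 9.82 prior degrees of freedom Omd and Dmp1 passed and Col1a1 did not (adjusted p = 0.23, limma), and the same held without the LTα1β2 library at 48 h. Spp1, named after its value was seen, had the other sign, at 1430 CPM in treated and 1234 CPM in control cells at 24 h and 2210 CPM in treated and 1525 CPM in control cells at 48 h (adjusted p = 0.337, limma). Of 10 tested targets and partners of Sox9 3 fell and 0 rose (0 higher at an unadjusted p under 0.05), while Sox9 itself did not pass: Col11a1 (-1.12), Fgfr3 and Col2a1 (-0.59), which encodes type II collagen. With 9.82 prior degrees of freedom only Col11a1 of these passed (adjusted p = 0.0216, limma). Col2a1 stood at 80.5 CPM in treated and 112 CPM in control cells at 24 h and at 39.8 CPM in treated and 65.2 CPM in control cells at 48 h.

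**Figure D5:**
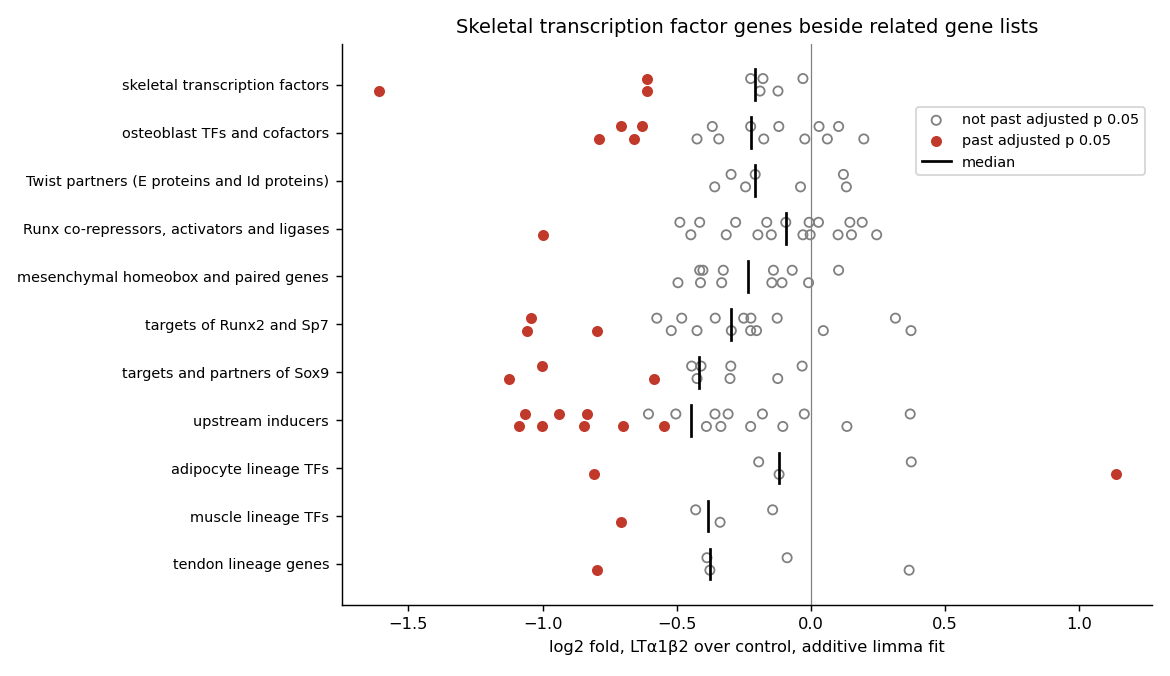
Additive log2 fold of LTα1β2 over control (horizontal axis) for each tested gene of the 8 skeletal factors (top row) and of the related lists, filled in red where the adjusted p was under 0.05 (limma). Black bars are list medians. Sp7 at -1.61 lies lowest of all genes shown, and 8 of the 20 upstream genes are red.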

How the data were processed

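Per the labels' protocols, total RNA was sequenced as 150 bp pairs from libraries of a strand-keeping kit. What the authors deposited is a single table of CPM, counts per 1000000, in which each column of 12208 genes sums to 1000000. The submitters' processing notes name edgeR 3.30.0. Which aligner, counter and build were used is not given in the sources used here. Symbols matched 12205 identifiers, versions ignored (GENCODE M21), and lengths are those of the longest transcript. In each column 100% of values were whole multiples, within 0.01 of a read, of the worth of 1 read. These reads gave depths of 11355974 to 15995777 and exact 95% intervals (conditional binomial for ratios, Poisson for levels; for a ratio of 2 ratios a log-normal approximation), which cover counting error only.

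Folds are differences of log2(CPM + 1), and so understate changes of low genes. Tests covered the 12160 genes whose mean CPM reached 1, in limma 3.58.1 (R 4.3.3): additive model of treatment and time, 1 residual degree of freedom, trended empirical Bayes, two-sided, Benjamini-Hochberg over all of them. Each group was 1 library, so differences at 1 time have no test, and a rule of 2-fold was used. The additive p-values rest on how far the treatment folds at 24 h and 48 h differ, and hold no spread between replicates. That difference may be technical, and a change of the effect with time cannot be told apart from it. The script was tested on simulated data. The members and lists were chosen with earlier results of these data known. Named genes were the members, the up to 4 genes per list of largest mean fold, and the 4 genes most like Sp7 and Runx2. The last were taken from genes whose symbol is not a Gm, Rik, clone or blank name. Spp1, Bglap, Bglap2, Supt3 and genes so marked are outside these rules. Alternatives were other pseudocounts, filters, scalings, length-trend removal, terms and left-out libraries; voom and finite prior degrees of freedom were added after seeing the data.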

Additional observations from a re-analysis of the deposited data

Results flagged for a closer look

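For 4 genes a ratio lay above 1 in 1 of a pair of like comparisons and below 1 in the other, and with 1 library per group these differences were not tested. Runx1 was 1.11 times control in LTα1β2-treated cells at 24 h and 0.861 times control at 48 h. The interval at 24 h (0.999 to 1.24) includes 1, and with the length trend removed the log2 fold was 0.14 at 24 h and 0.03 at 48 h, the same sign. From 24 h onward to 48 h, Runx2 changed by a ratio of 0.738 in treated and 1.08 in control cells, Dlx5 by 0.843 in treated and 1.07 in control cells, and Msx2 by 0.982 in treated and 1.22 in control cells. The Msx2 ratios rest on 32 to 46 reads per library, and both intervals include 1. For Dlx5 the interval in control cells also includes 1. The treated 48 h library, which enters each of these, had the shortest read-weighted transcript length (3127 bases). For the ratios between times its part was not tested.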

How the results depend on the processing

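Sp7 was lower and passed under all 14 alternatives, with log2 folds from -1.93 to -1.30 and adjusted p from 7.94e-31 to 0.0447 (limma). The count of genes called was 631. It was 179 with median-of-ratios rescaling, 342 with the length trend removed, 31 with no time term and 64 with the prior degrees of freedom of the rescaled fit (chosen after seeing the data), and it ranged from 22 to 4949 with 1 library left out (no time term; the lone library is assumed to vary like the others). The count of skeletal factors that fell was 3. It was 1 with rescaling, 1 with no time term and 1 with the finite prior, and ranged from 1 to 5 with 1 library left out: 1 without control at 24 h, 1 without control at 48 h, 3 without LTα1β2 at 48 h and 5 without LTα1β2 at 24 h, where Runx1 and Sox9 passed too. Both fits without a treated library also called more of all tested genes lower than the main fit did. The fit without LTα1β2 at 24 h called by far the most. Their counts of factors therefore cannot be set beside that of the main fit. The calls of Runx1 and Sox9 rest on the fit without LTα1β2 at 24 h alone. The Runx1 fold, -0.03, was 0.006 with rescaling and 0.084 with the length trend removed. It was 0.251 without LTα1β2 at 48 h and 0.071 without control at 24 h. The Sox9 fold, -0.19, was 0.006 without LTα1β2 at 48 h. At 1.5-fold, 3 factors in place of 1 were lower at 48 h and 1 in place of 0 with time in treated cells. The share of all tested genes past 1.5-fold was not counted, so these counts have no background. Over the lists 21 calls became 13 with rescaling. The causes were not tested. The planned edgeR and DESeq2 tests were not run; voom on recovered reads called 613. The fit already sets treated against control within each time, and the labels carry no replicate numbers for a further block. Depth limits Msx1 and Msx2 most.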

Other observations

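Transcription factors of neighbouring lineages did not move as 1 group. Of 5 tested adipocyte lineage factors 1 rose and 1 fell, where 2.92% of all tested genes rose and 2.27% fell. Cebpd, a C/EBP factor induced early in fat cell formation, stood at 110 CPM in treated and 57.6 CPM in control cells at 24 h and at 94.4 CPM in treated and 36.5 CPM in control cells at 48 h (log2 fold 1.14 ± 0.17 SE, adjusted p = 8.49e-09, limma). Zfp423, which encodes a factor of preadipocyte commitment, fell (-0.81, adjusted p = 0.000742, limma; adjusted p = 0.164 with 9.82 prior degrees of freedom). Pparg and Cebpa were not analysed here. Of 4 tested muscle lineage factors 1 fell, Mef2c, and of 5 tendon lineage genes 1 fell, Tnc (-0.80, adjusted p = 0.000275, limma; 0.116 with 9.82 prior degrees of freedom), while Scx, the tendon factor, named after its value was seen, had -0.09 and did not pass. Of 17 markers of blood, endothelial, epithelial and osteoclast cells 4 were in the table. Csf1r and Cd68 were at no more than 2.67 CPM in any library, Ctsk and Lyz2 were at 53.9 to 117 CPM, and 0 of the 4 passed the test (limma; 0 also at an unadjusted p under 0.05).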
